A study of Mus musculus with 12 samples.

Results

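Sarcomere genes encode the contractile machinery of striated muscle and the proteins that trigger and fuel it. The 42 genes described here were taken by name from the 61210 rows of the iBAT count table: the actin, myosin, troponin and tropomyosin genes, the proteins of the Z-disc and M-band, calcium-handling proteins, and the enzymes and oxygen carrier typical of muscle fibres. All 42 were found once and all 42 passed the filter on low counts, which kept 16737 genes. They were chosen by function, with earlier results of these data known.

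Total RNA-seq was performed on iBAT of wild type C57BL/6N mice aged 20 weeks. NCD mice stayed on chow and HFD mice were switched to a high-fat diet at 8 weeks of age for 12 weeks. Each diet had 3 libraries labelled room temperature (22 °C in the methods and in the column names) and 3 from animals kept at 4 °C for 24 h, giving 12 libraries in 4 groups. The design text of the series reads iBAT as inguinal brown adipose tissue, whereas the methods describe the interscapular depot. The labels do not say whether each library is 1 animal or a pool, so p-values measure the spread between these libraries. Replicates 1 and 2 of each group carry batch 1 in the labels (8 libraries) and replicate 3 carries batch 2 (4 libraries). Total counts lay between 15136861 and 46740702, with the 4 libraries of batch 2 the deepest. Brown adipocyte genes were expressed in every library: summed over 12 such genes, the level was between 13545 and 33917 CPM (counts relative to the TMM-scaled library total). No other tissue was compared, so this sum does not settle which depot was taken.

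In a sarcomere, thick filaments of myosin pull on thin filaments of actin, and the troponin complex on the thin filament opens the myosin sites when calcium is released from the sarcoplasmic reticulum. Most of these proteins exist as fast and slow isoforms from separate genes, and a fibre usually expresses matching sets. Myh7 marks slow type I fibres, Myh2 the fast oxidative IIa, Myh1 the IIx and Myh4 the fast glycolytic IIb fibres, while Myh3 and Myh8 encode the embryonic and perinatal heavy chains of developing or regenerating muscle. Brown adipocytes share a progenitor with skeletal muscle, and the interscapular depot lies against muscles of the back.

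The heavy chain genes were compared by sequence first, since near-identical copies limit how well reads can be assigned. The coding sequence of Myh4 was 90.2% identical to Myh1, 88.2% to Myh2, 87.9% to Myh8, 80.3% to Myh3 and 77.5% to Myh7, and the longest run shared with Myh1 was 161 bases. The 120 coding bases below, from coding base 3241 of Myh4 and the matching place in each gene (GENCODE M21, GRCm38), start in that run. Myh3, Myh2, Myh1, Myh4 and Myh8 lie in a row at chr11:67078300-67308634, and Myh7 lies on chromosome 14. Capitals mark bases that differ from Myh4.
Myh4: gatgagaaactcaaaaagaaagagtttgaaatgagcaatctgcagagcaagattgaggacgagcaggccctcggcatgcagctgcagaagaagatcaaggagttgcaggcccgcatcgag
Myh1: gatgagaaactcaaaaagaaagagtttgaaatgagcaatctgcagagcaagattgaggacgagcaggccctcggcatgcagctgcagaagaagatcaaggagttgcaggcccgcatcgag
Myh2: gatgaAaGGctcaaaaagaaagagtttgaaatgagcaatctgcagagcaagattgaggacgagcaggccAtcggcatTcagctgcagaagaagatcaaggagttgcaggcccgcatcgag
Myh8: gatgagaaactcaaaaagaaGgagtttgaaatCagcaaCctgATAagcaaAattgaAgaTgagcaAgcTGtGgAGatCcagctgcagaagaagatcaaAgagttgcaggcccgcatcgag
Myh3: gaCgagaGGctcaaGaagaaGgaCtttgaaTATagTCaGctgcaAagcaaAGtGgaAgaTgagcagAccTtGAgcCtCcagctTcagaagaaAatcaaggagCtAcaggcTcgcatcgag
Myh7: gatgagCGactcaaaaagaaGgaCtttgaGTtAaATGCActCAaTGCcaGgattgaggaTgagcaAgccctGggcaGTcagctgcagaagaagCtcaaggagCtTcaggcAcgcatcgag
Myh1 had 0 differing bases in this window, Myh2 had 5, Myh8 had 17, Myh7 had 27 and Myh3 had 29. Of the 31-base words in the transcripts, 37.9% of Myh1, 32.8% of Myh2 and 30.4% of Myh4 occurred in another gene, so the split among these 3 fast chains is uncertain. For Myh7 it was 22.9%, for Myh8 18.6% and for Myh3 11.1%. The fast and slow partners of the other proteins were further apart, between 59.5% identity for Mybpc2 and Mybpc1 and 73.3% for Myl1 and Myl3. The same stretch of the fast and the slow troponin I shows this, with 49 of 120 bases (capitals) different in Tnni1.
Tnni2: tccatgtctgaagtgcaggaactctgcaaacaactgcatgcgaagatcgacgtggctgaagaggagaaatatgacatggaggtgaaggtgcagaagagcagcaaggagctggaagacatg
Tnni1: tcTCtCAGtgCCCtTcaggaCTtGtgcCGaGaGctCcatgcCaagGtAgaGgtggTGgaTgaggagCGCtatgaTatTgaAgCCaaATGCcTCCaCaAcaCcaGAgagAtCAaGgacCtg

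The level of muscle transcripts differed widely between libraries of the same group. Summed over 38 members, leaving out Tpm1, Tpm2, Tpm3 and Des, which other cells also express, the level was 6268, 41898 and 7881 CPM in the NCD libraries at 22 °C and 3690.3, 24812 and 2557 CPM in those at 4 °C. On HFD it was 5275, 4897 and 69235 CPM at 22 °C and 1514, 1970.4 and 13028 CPM at 4 °C. Replicate 2 on NCD and replicate 3 on HFD were the highest of their groups at both temperatures, and the libraries of all 4 groups overlapped. The long gene Ttn weighed heavily in the sum. Without it the level was 29523 CPM in HFD 22 °C replicate 3 and 26052 CPM in NCD 22 °C replicate 2. Mb, which followed the other members least among the adult genes, stayed in the sum. As a share of all counts the sum ran from 0.173% to 7.20%, a 41.5-fold range. The group means were 18682 ± 20122 (SD, n = 3) on NCD at 22 °C, 10353 ± 12535 on NCD at 4 °C, 26469 ± 37037 on HFD at 22 °C and 5504 ± 6520.1 on HFD at 4 °C, with an SD above the mean in each group. A single library set each mean, which was 7074 CPM without NCD 22 °C replicate 2, 3124 without NCD 4 °C replicate 2, 5086 without HFD 22 °C replicate 3 and 1742 without HFD 4 °C replicate 3. In bulk tissue, fewer muscle fibres and less RNA per fibre cannot be told apart.

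**Figure D1:**
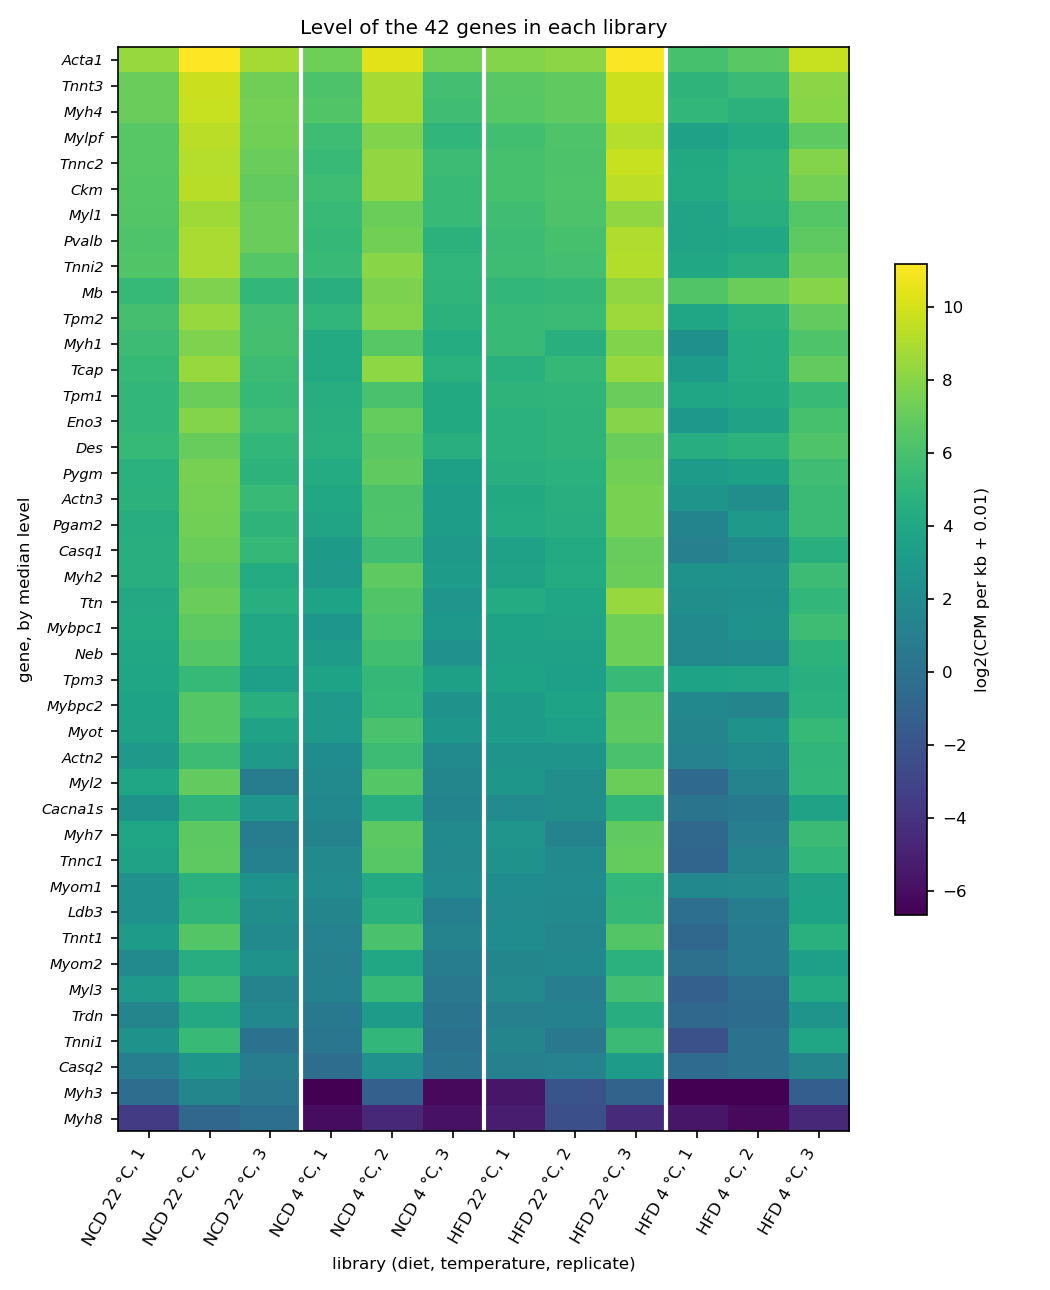
Level of each of the 42 genes (rows, by median) in each of the 12 libraries (columns), as log2 of CPM per kilobase plus 0.01. The brightest columns are HFD 22 °C replicate 3 and NCD 22 °C replicate 2, and Myh3 and Myh8 form the 2 darkest rows.

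The library of HFD 22 °C replicate 3 held the highest level of 34 of the 42 genes, NCD 22 °C replicate 2 that of 7 and NCD 22 °C replicate 3 that of 1. HFD 4 °C replicate 1 held the lowest level of 34. Per kilobase of exon, skeletal actin Acta1 had the highest median level over the libraries, 307 CPM per kb, followed by Tnnt3 at 128 and Myh4 at 124. Casq2 at 2.07, Myh3 at 0.315 and Myh8 at 0.0298 CPM per kb were the lowest.

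Members varied together over the 12 libraries. The log2 level of each was compared with the log2 sum of the other members, 42 relations in all, and 38 had a Pearson r over 0.9 (33 without the 2 libraries farthest from the median of the sum, and 38 in the 8 libraries of batch 1). Neb, the thin filament ruler nebulin, had r = 0.998 and Spearman rho = 1 (permutation p = 1e-05 for each, the smallest that 100000 permutations can give). Myoglobin Mb followed the others least among the adult genes, with r = 0.626 (permutation p = 0.0308) and rho = 0.587 (permutation p = 0.0472), and r was 0.351 without the 2 farthest libraries and 0.461 in batch 1. Perinatal Myh8 had r = 0.354 (permutation p = 0.258) and rho = 0.671 (permutation p = 0.0203), and r was 0.284 without the 2 farthest libraries and 0.679 in batch 1. These levels come from the same libraries and share their depth and composition. The permutations shuffled all 12 libraries freely, without regard to group, batch or replicate number, so the p-values may be too small.

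The promoters of the members were searched next, as a description of their sequence. Whether these motifs bear on how the levels varied together was not tested. RefSeq windows on GRCm38.p6 matched 34 of the 42 members, and the 250 bases before each start were read on both strands. An E-box, CANNTG, which binds myogenic factors such as MyoD, occurred in 91.2% of the members' windows and in 69.3% of 27025 genes. The E-box CAGCTG, included in that count, occurred in 47.1% against 14.7%. A MEF2 box was found in 20.6% against 3.42%, an MCAT box, CATTCC, in 32.4% against 14.4%, and an SRF CArG box in 14.7% against 1.62%. A TATA box, TATAAA, occurred in 23.5% against 14.3%. A match describes the letters and is not a binding site. Highly expressed members need not hold a motif close to the start. Ckm had an E-box in its 250 bases, but 0 E-boxes and 0 CArG boxes in the last 150. The 150 bases before the start of 3 highly expressed members are printed with E-boxes and CArG boxes, where this shorter stretch holds them, in capitals.
Acta1, chr8:123894776-123894925 (- strand): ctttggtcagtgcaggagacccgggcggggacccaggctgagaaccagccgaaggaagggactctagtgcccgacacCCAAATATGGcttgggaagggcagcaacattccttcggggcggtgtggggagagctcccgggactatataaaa
Myh4, chr11:67237662-67237811 (+ strand): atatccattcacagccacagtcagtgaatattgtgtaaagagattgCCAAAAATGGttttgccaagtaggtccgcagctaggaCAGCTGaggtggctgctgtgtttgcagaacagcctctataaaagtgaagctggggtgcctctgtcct
Mylpf, chr7:127211458-127211607 (+ strand): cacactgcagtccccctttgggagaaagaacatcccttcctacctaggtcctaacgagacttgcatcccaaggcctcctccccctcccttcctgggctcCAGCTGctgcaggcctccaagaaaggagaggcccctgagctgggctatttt

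To ask how 24 h of cold changed these genes, libraries with the same replicate number at 22 °C and 4 °C were set against each other within each diet, with the replicate number as a block. At 4 °C, 28 of the 42 members were lower on NCD and 34 of 42 on HFD, and 0 were higher on either diet (edgeR quasi-likelihood test, Benjamini-Hochberg adjusted p under 0.05 and absolute log2 fold change over 0.5). Of all genes tested, 4.38% were called lower and 4.48% higher on NCD (8.86% in all), and 6.75% lower and 6.11% higher on HFD (12.9% in all). The median log2 fold change of the members was -0.998 on NCD and -1.61 on HFD, against -0.01 and -0.04 over all genes. Without the block the same comparison called 1 member on NCD (Myh8, lower) and 0 on HFD, where 6.27% and 9.58% of all genes were called. Without the block, 2 members on NCD and 0 on HFD had an unadjusted p under 0.05. The median on NCD in that fit was -0.79, and 0.51 without NCD 22 °C replicate 2. The calls rest on taking the libraries as pairs.

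Levels were lower at 4 °C in 6 of 6 same-numbered pairs for 35 of the 42 members, as for 13.3% of all genes. The libraries of the 2 temperatures did not overlap for 2 members on NCD (Myh3 and Myh8), against 27.8% of all genes, and for 0 members on HFD, against 30.3%. Leaving out any 1 of the 6 NCD libraries left 11 to 15 members called on NCD in place of 28, while the share of all genes called went from 8.86% to between 1.40% and 2.52%. Leaving out any 1 of the 6 HFD libraries left 29 to 36 members called on HFD, with 8.05% to 9.62% of all genes. In batch 1 alone, 19 members were called on NCD (6.06% of all genes) and 30 on HFD (8.86%), 29 of the latter lower and Mb higher. Over the same contrasts, brown adipocyte genes moved too: of 12, 5 were called higher on NCD, and 4 higher and 2 lower on HFD. Ucp1, the uncoupling protein of thermogenesis, had a log2 fold change of 1.96 ± 0.16 on NCD (adjusted p = 0.000661) and 0.93 ± 0.16 on HFD (adjusted p = 0.00671), and the part of such shifts in the result was not tested.

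**Figure D2:**
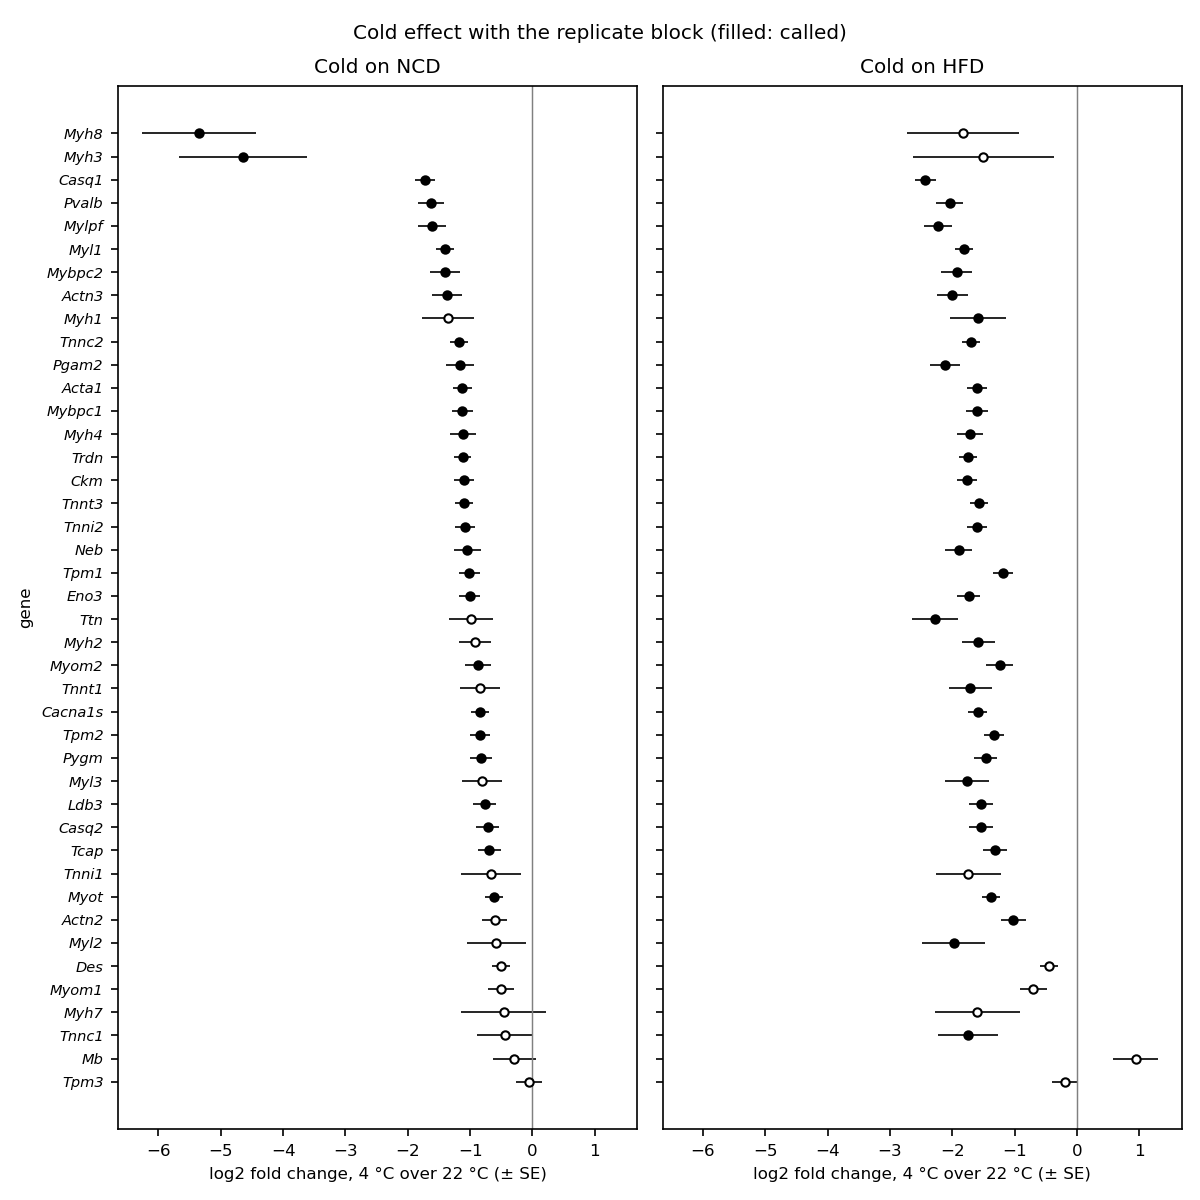
Log2 fold change at 4 °C over 22 °C, with its standard error, for each of the 42 genes on NCD (left) and HFD (right), fitted with the replicate block; filled points passed the test. All points on NCD and all but Mb on HFD lie below 0.

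Of the 5 actin, nebulin and tropomyosin genes of the thin filament, 4 were called lower on both diets. Acta1, the main actin of skeletal muscle, was at 527, 3571 and 690.5 CPM on NCD at 22 °C, 230.4, 2038 and 267 on NCD at 4 °C, 368, 417 and 3384 on HFD at 22 °C and 95.97, 152 and 1263 on HFD at 4 °C. Each of the 6 cold libraries lay below its same-numbered partner, yet the groups overlapped, since NCD 4 °C replicate 2 exceeded 2 of the 3 NCD libraries at 22 °C. The log2 fold change was -1.12 ± 0.15 on NCD (adjusted p = 0.00453) and -1.60 ± 0.16 on HFD (adjusted p = 0.000777). Nebulin, Neb, was at 409, 2363 and 440.0 CPM on NCD at 22 °C, 235, 1486 and 138 on NCD at 4 °C, 317, 306 and 4025 on HFD at 22 °C and 90.98, 104 and 794 on HFD at 4 °C. Its log2 fold change was -1.04 ± 0.22 on NCD (adjusted p = 0.0203) and -1.90 ± 0.22 on HFD (adjusted p = 0.00166). Tpm1 and Tpm2, tropomyosins that lie along the actin groove, were called lower on both diets. Tpm1 stood at 234, 948 and 257 CPM on NCD at 22 °C, 142, 428 and 115 on NCD at 4 °C, 197, 214 and 892 on HFD at 22 °C and 96.2, 116 and 284 on HFD at 4 °C. Tpm2 stood at 179.7, 1015 and 167 CPM on NCD at 22 °C, 99.01, 677 and 80.3 on NCD at 4 °C, 119, 132 and 1092 on HFD at 22 °C and 41.95, 72.6 and 355 on HFD at 4 °C. In both genes the 4 libraries of NCD replicate 2 and HFD replicate 3 stayed above the other 8. Tpm3, the slow-muscle and non-muscle tropomyosin, ranged from 64.7 to 263 CPM only, and was not called, with -0.05 ± 0.20 on NCD (adjusted p = 0.905) and -0.19 ± 0.20 on HFD (adjusted p = 0.556).

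Among the heavy chains, the fast Myh4 was called lower on both diets. Myh4 was at 827, 5014 and 1078 CPM on NCD at 22 °C, 483, 2808 and 322 on NCD at 4 °C, 569, 669 and 5519.5 on HFD at 22 °C and 219.9, 169 and 1593 on HFD at 4 °C, and the log2 fold change was -1.12 ± 0.21 on NCD (adjusted p = 0.0143) and -1.72 ± 0.21 on HFD (adjusted p = 0.00197). The fall was seen in 6 of 6 pairs. Myh1 was at 297, 1355 and 389 CPM on NCD at 22 °C, 121, 584 and 133 on NCD at 4 °C, 265, 154 and 1394 on HFD at 22 °C and 30.8, 136 and 485 on HFD at 4 °C. Myh2 was at 164, 817 and 143 CPM on NCD at 22 °C, 57.2, 762 and 64.1 on NCD at 4 °C, 87.4, 145 and 1018 on HFD at 22 °C and 39.4, 36.2 and 337 on HFD at 4 °C. Both passed the test on HFD, with -1.58 ± 0.45 (adjusted p = 0.0441) for Myh1 and -1.58 ± 0.26 (adjusted p = 0.00623) for Myh2, and neither did on NCD, with -1.35 ± 0.41 (adjusted p = 0.0732) and -0.92 ± 0.26 (adjusted p = 0.0558). Slow Myh7 was at 121, 906 and 16.2 CPM on NCD at 22 °C, 22.02, 874 and 31.01 on NCD at 4 °C, 54.6, 21.5 and 981 on HFD at 22 °C and 5.13, 16.9 and 397 on HFD at 4 °C. It varied 191-fold over the libraries, was higher at 4 °C in the pair of NCD replicate 3, and was called on neither diet, with -0.46 ± 0.68 on NCD (adjusted p = 0.731) and -1.60 ± 0.68 on HFD (adjusted p = 0.146).

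The developmental heavy chains had the fewest counts of the members' heavy chains, and 0 to 6 in some libraries. Myh3 had 80, 295 and 343 counts on NCD at 22 °C, 0, 45 and 1 on NCD at 4 °C, 1, 27 and 109 on HFD at 22 °C and 0, 0 and 103 on HFD at 4 °C. Myh8 had 15, 117 and 436 counts on NCD at 22 °C, 1, 6 and 4 on NCD at 4 °C, 3, 43 and 15 on HFD at 22 °C and 3, 1 and 15 on HFD at 4 °C. In Myh3 the libraries without counts were all at 4 °C, and the highest counts of both genes were on NCD at 22 °C. A count of 0 allows up to 3 counts in that library. In CPM, Myh3 was at 4.98, 17.1 and 8.4002 CPM on NCD at 22 °C, 0, 2.65 and 0.0237 on NCD at 4 °C, 0.0644, 1.41 and 3.08 on HFD at 22 °C and 0, 0 and 2.401 on HFD at 4 °C. Myh8 was at 0.933, 6.801 and 10.7 CPM on NCD at 22 °C, 0.0573, 0.353 and 0.0947 on NCD at 4 °C, 0.193, 2.25 and 0.424 on HFD at 22 °C and 0.135, 0.04403 and 0.3496 on HFD at 4 °C. Both were called lower on NCD, with a log2 fold change of -4.65 ± 1.02 (adjusted p = 0.0245) for Myh3 and -5.35 ± 0.92 (adjusted p = 0.0107) for Myh8. On HFD the values were -1.50 ± 1.13 (adjusted p = 0.398) and -1.82 ± 0.90 (adjusted p = 0.202).

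Of the 4 light chains, which stiffen and tune the myosin neck, the 2 fast ones were called lower on both diets. The fast regulatory chain Mylpf was at 101, 697 and 179 CPM on NCD at 22 °C, 52.9, 236 and 35.98 on NCD at 4 °C, 57.98, 83.4 and 631 on HFD at 22 °C and 12.8, 20.2 and 116 on HFD at 4 °C. Fast Myl1 was at 181, 824 and 289 CPM on NCD at 22 °C, 87.8, 308 and 85.7 on NCD at 4 °C, 111, 155 and 634 on HFD at 22 °C and 27.9, 48.6 and 183 on HFD at 4 °C. Both were lower in 6 of 6 pairs, and the log2 fold changes were -1.61 ± 0.23 on NCD (adjusted p = 0.00505) and -2.23 ± 0.23 on HFD (adjusted p = 0.00105) for Mylpf and -1.41 ± 0.14 on NCD (adjusted p = 0.00153) and -1.82 ± 0.15 on HFD (adjusted p = 0.000515) for Myl1. Slow Myl2 was at 28.9, 236 and 3.55 CPM on NCD at 22 °C, 7.17, 177 and 5.59 on NCD at 4 °C, 13.3, 8.94 and 285 on HFD at 22 °C and 1.31, 4.799 and 70.2 on HFD at 4 °C. Slow Myl3 was at 15.9, 95.6 and 4.996 CPM on NCD at 22 °C, 4.701, 88.3 and 2.86 on NCD at 4 °C, 6.89, 3.97 and 116 on HFD at 22 °C and 0.9003, 1.76 and 39.2 on HFD at 4 °C. On NCD these slow chains did not pass, with -0.58 ± 0.47 (adjusted p = 0.498) and -0.81 ± 0.32 (adjusted p = 0.146), whereas on HFD both were called lower, with -1.98 ± 0.50 (adjusted p = 0.0305) and -1.77 ± 0.35 (adjusted p = 0.0124).

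Of the 6 troponin genes, the 3 fast ones were called lower on both diets. Tnnt3, which anchors the complex to tropomyosin, was at 223, 1370.0 and 258 CPM on NCD at 22 °C, 119, 729 and 92.7 on NCD at 4 °C, 155, 181 and 1442 on HFD at 22 °C and 49.5, 70.9 and 439.5 on HFD at 4 °C. Inhibitory Tnni2 was at 121, 739 and 131 CPM on NCD at 22 °C, 62.4, 387 and 51.2 on NCD at 4 °C, 74.98, 86.9 and 857 on HFD at 22 °C and 24.9, 37.1 and 218 on HFD at 4 °C. Calcium-binding Tnnc2 was at 76.1, 466 and 111 CPM on NCD at 22 °C, 34.1, 256 and 38.9 on NCD at 4 °C, 49.9, 60.3 and 649 on HFD at 22 °C and 14.3, 21.7 and 185 on HFD at 4 °C. Their log2 fold changes lay between -1.18 and -1.08 on NCD and between -1.70 and -1.57 on HFD, in 6 of 6 pairs each. The slow Tnnt1 was at 19.97, 184 and 8.06 CPM on NCD at 22 °C, 5.33, 148 and 5.49 on NCD at 4 °C, 9.02, 6.796 and 185 on HFD at 22 °C and 1.395, 3.48 and 56.8 on HFD at 4 °C. Slow Tnni1 was at 19.2, 155 and 3.55 CPM on NCD at 22 °C, 4.64, 131 and 3.76 on NCD at 4 °C, 9.98, 5.02 and 166 on HFD at 22 °C and 0.7203, 3.698 and 51.5 on HFD at 4 °C. Slow Tnnc1 was at 13.001, 110.5 and 2.35 CPM on NCD at 22 °C, 3.497, 96.3 and 3.53 on NCD at 4 °C, 5.93, 3.92 and 129 on HFD at 22 °C and 0.585, 2.598 and 36.6 on HFD at 4 °C. None of the slow 3 passed on NCD, and Tnnt1 and Tnnc1 but not Tnni1 passed on HFD, with -1.72 ± 0.34 (adjusted p = 0.0128), -1.75 ± 0.49 (adjusted p = 0.043) and -1.75 ± 0.52 (adjusted p = 0.0546). Whether fast and slow genes differed in their response was not tested; Tnni1 and Tnnc1 were higher at 4 °C in the pair of NCD replicate 3.

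**Figure D3:**
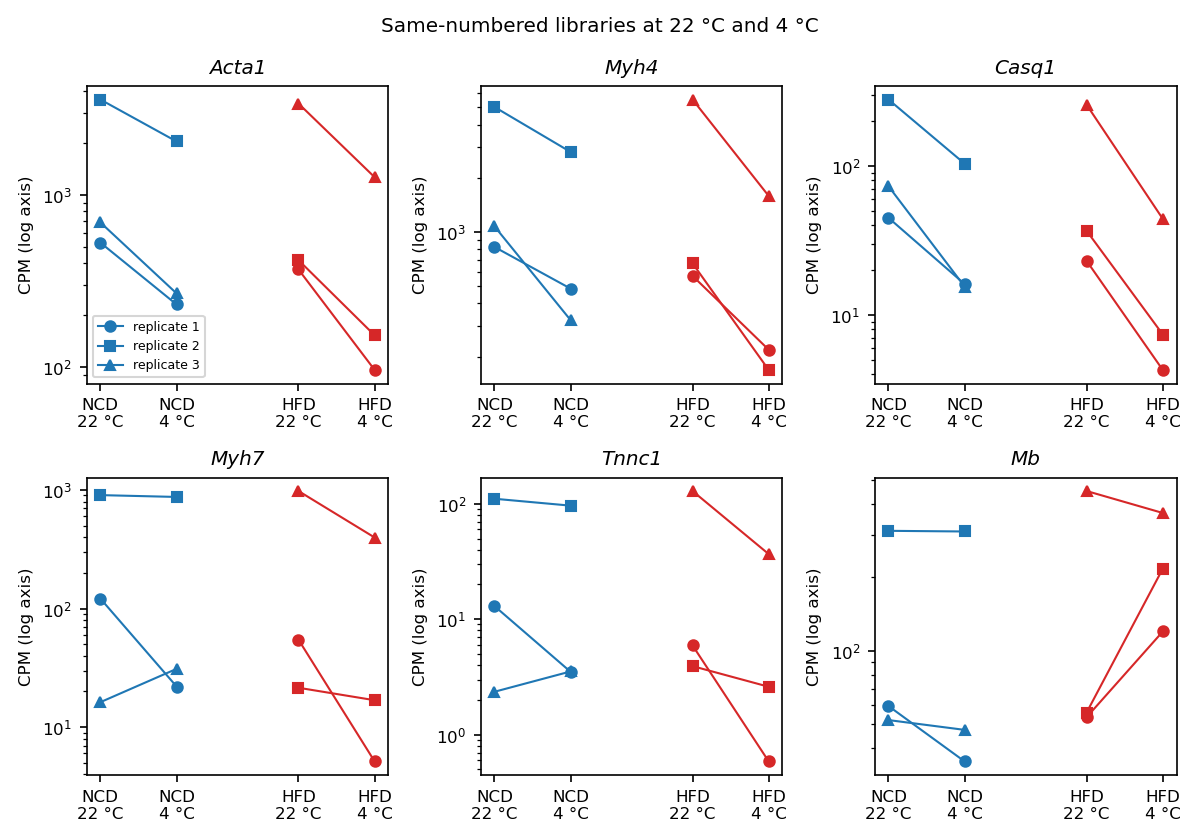
CPM (log axis) of Acta1, Myh4, Casq1, Myh7, Tnnc1 and Mb at 22 °C and 4 °C, with lines joining libraries of the same replicate number on NCD (blue) and HFD (red). Lines of Acta1, Myh4 and Casq1 all fall, lines of Myh7 and Tnnc1 are uneven on NCD, and 2 of the 3 Mb lines rise on HFD.

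Of the 9 Z-disc and M-band genes including titin, 5 were called lower on both diets and 2 on HFD but not on NCD. Ttn, the giant spring titin, was at 2019, 15846 and 2691 CPM on NCD at 22 °C, 1539, 9538 and 745 on NCD at 4 °C, 2311, 1633 and 39711 on HFD at 22 °C and 530.1, 583 and 4183 on HFD at 4 °C. In HFD 22 °C replicate 3 it had 11.7 counts for each count of Acta1, against 2.79 to 6.68 in the other 11 libraries. By the test it passed on HFD and not on NCD, with -0.99 ± 0.35 on NCD (adjusted p = 0.116) and -2.28 ± 0.37 on HFD (adjusted p = 0.00586). Actn2 and Actn3 are the alpha-actinins that cross-link actin at the Z-disc, Actn3 in fast fibres alone. Actn2 was at 28.2, 179 and 28.4 CPM on NCD at 22 °C, 15.4, 182 and 14.01 on NCD at 4 °C, 22.8, 22.5 and 257 on HFD at 22 °C and 8.91, 13.2 and 131 on HFD at 4 °C. Actn3 was at 80.6, 509 and 122 CPM on NCD at 22 °C, 48.3, 209.6 and 29.2 on NCD at 4 °C, 51.6, 67.5 and 562 on HFD at 22 °C and 17.6, 12.9 and 135 on HFD at 4 °C. Actn3 passed on both diets with -1.37 ± 0.24 on NCD (adjusted p = 0.0115) and -1.998 ± 0.25 on HFD (adjusted p = 0.00207), and Actn2 on HFD with -1.02 ± 0.20 (adjusted p = 0.0122) but not on NCD with -0.60 ± 0.20 (adjusted p = 0.0913).

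Tcap, the titin cap at the Z-disc, was at 37.1, 327 and 44.5 CPM on NCD at 22 °C, 18.3, 268 and 25.5 on NCD at 4 °C, 24.5, 34.8 and 334 on HFD at 22 °C and 8.33, 19.9 and 111 on HFD at 4 °C. Ldb3, a PDZ and LIM protein of the Z-disc, was at 31.1, 199 and 27.2 CPM on NCD at 22 °C, 17.1, 153 and 12.9 on NCD at 4 °C, 23.4, 23.0003 and 227 on HFD at 22 °C and 5.49, 10.9 and 80.01 on HFD at 4 °C. Myot, which binds alpha-actinin, was at 26.9, 196 and 26.7 CPM on NCD at 22 °C, 17.2, 149 and 15.1 on NCD at 4 °C, 20.3, 23.8 and 235 on HFD at 22 °C and 6.21, 11.8 and 85.9 on HFD at 4 °C. All 3 were called lower on both diets, with log2 fold changes of -0.76 to -0.62 on NCD and -1.54 to -1.32 on HFD. Myom2, a myomesin of the M-band, was at 30.7, 198 and 47.6 CPM on NCD at 22 °C, 19.2, 149 and 16.6 on NCD at 4 °C, 25.1, 27.8 and 233 on HFD at 22 °C and 8.42, 15.3 and 94.04 on HFD at 4 °C, and was lower on both diets, with -0.87 ± 0.21 on NCD (adjusted p = 0.034) and -1.24 ± 0.21 on HFD (adjusted p = 0.00715). Its relative Myom1 (33.6 to 366 CPM) and the intermediate filament gene Des (80.8 to 518 CPM) did not pass on either diet. Myom1 had -0.50 ± 0.21 on NCD (adjusted p = 0.179) and -0.70 ± 0.22 on HFD (adjusted p = 0.0623). Des had -0.51 ± 0.14 on NCD (adjusted p = 0.0523) and -0.45 ± 0.14 on HFD (adjusted p = 0.0622).

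The myosin-binding protein C genes, Mybpc1 for the slow-type and Mybpc2 for the fast-type isoform, were both called lower on both diets. Mybpc1 was at 84.98, 500.0 and 75.2 CPM on NCD at 22 °C, 29.4, 311 and 33.2 on NCD at 4 °C, 59.5, 61.5 and 691 on HFD at 22 °C and 15.6, 24.5 and 231 on HFD at 4 °C. Mybpc2 was at 47.7, 329 and 87.5 CPM on NCD at 22 °C, 27.3, 142 and 19.2 on NCD at 4 °C, 34.1, 47.3 and 366 on HFD at 22 °C and 11.7, 9.77 and 94.4 on HFD at 4 °C. The log2 fold changes were -1.12 ± 0.17 on NCD (adjusted p = 0.00687) and -1.61 ± 0.17 on HFD (adjusted p = 0.00129) for Mybpc1 and -1.41 ± 0.24 on NCD (adjusted p = 0.0106) and -1.93 ± 0.25 on HFD (adjusted p = 0.00237) for Mybpc2.

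Genes of calcium release and storage held the member with the lowest adjusted p. Casq1, the calcium-storing calsequestrin of fast fibres, was at 44.9, 279 and 73.03 CPM on NCD at 22 °C, 16.1, 103 and 15.5 on NCD at 4 °C, 23.1, 36.7 and 257 on HFD at 22 °C and 4.28, 7.397 and 44.1 on HFD at 4 °C. It fell in 6 of 6 pairs, with a log2 fold change of -1.72 ± 0.16 on NCD (adjusted p = 0.00112) and -2.43 ± 0.17 on HFD (adjusted p = 0.000401). Casq2, the slow and cardiac form, was at 5.35, 19.1 and 4.92 CPM on NCD at 22 °C, 2.29, 14.1 and 3.196 on NCD at 4 °C, 5.99, 6.48 and 25.4 on HFD at 22 °C and 2.03, 2.77 and 7.48 on HFD at 4 °C, and was also called lower, with -0.72 ± 0.19 on NCD (adjusted p = 0.0423) and -1.54 ± 0.19 on HFD (adjusted p = 0.00207). Pvalb, the calcium buffer parvalbumin of fast fibres, was at 80.1, 516 and 143 CPM on NCD at 22 °C, 38.8, 178 and 29.7 on NCD at 4 °C, 50.3, 66.8 and 549 on HFD at 22 °C and 13.9, 17.4 and 111 on HFD at 4 °C. Cacna1s, the voltage sensor of the transverse tubule, was at 37.8, 199 and 40.8 CPM on NCD at 22 °C, 21.3, 144 and 17.2 on NCD at 4 °C, 25.1, 29.1 and 215 on HFD at 22 °C and 7.47, 9.47 and 79.01 on HFD at 4 °C. Trdn, triadin of the calcium release complex, was at 25.8, 159 and 29.9 CPM on NCD at 22 °C, 13.4, 85.6 and 10.5 on NCD at 4 °C, 20.03, 20.9 and 209.7 on HFD at 22 °C and 5.72, 7.18 and 57.1 on HFD at 4 °C. These 3 were called lower on both diets, Pvalb with -1.62 ± 0.21 on NCD (adjusted p = 0.00376) and -2.04 ± 0.21 on HFD (adjusted p = 0.00105), Cacna1s at -0.84 and -1.59 and Trdn at -1.12 and -1.75.

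Of the energy supply genes, 4 enzymes were called lower on both diets. Ckm, the creatine kinase that buffers ATP, was at 257, 1807 and 347 CPM on NCD at 22 °C, 146, 912 and 124 on NCD at 4 °C, 187, 227 and 1992 on HFD at 22 °C and 54.5, 79.8 and 501 on HFD at 4 °C. Its log2 fold change was -1.10 ± 0.15 on NCD (adjusted p = 0.00488) and -1.76 ± 0.16 on HFD (adjusted p = 0.000609). Eno3, the muscle enolase, was at 62.6, 400.5 and 88.5 CPM on NCD at 22 °C, 39.3, 217 and 32.1 on NCD at 4 °C, 46.3, 54.6 and 431 on HFD at 22 °C and 12.6, 21.5 and 109 on HFD at 4 °C. Pygm, which breaks down glycogen, was at 86.6, 582 and 96.2 CPM on NCD at 22 °C, 64.6, 370.0 and 36.9 on NCD at 4 °C, 76.4, 86.4 and 541 on HFD at 22 °C and 28.3, 35.6 and 169 on HFD at 4 °C. Pgam2, the muscle phosphoglycerate mutase, was at 18.9, 138 and 26.4 CPM on NCD at 22 °C, 11.6, 64.4 and 8.55 on NCD at 4 °C, 16.7, 18.7 and 161 on HFD at 22 °C and 2.21, 6.296 and 38.6 on HFD at 4 °C. Log2 fold changes of the 4 enzymes lay between -1.16 and -0.82 on NCD and between -2.12 and -1.47 on HFD.

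Myoglobin was the member whose values stood apart from this pattern. Mb, which stores oxygen in oxidative fibres, was at 59.4, 311 and 52.04 CPM on NCD at 22 °C, 35.2, 309 and 47.4 on NCD at 4 °C, 53.5, 55.9 and 452 on HFD at 22 °C and 120.1, 217 and 368 on HFD at 4 °C. On HFD it was higher at 4 °C in the pairs of replicates 1 and 2 and lower in that of replicate 3, and on NCD the log2 differences of the 3 pairs lay between -0.75 and -0.01. The fit with the block gave -0.29 ± 0.35 on NCD (adjusted p = 0.667) and 0.94 ± 0.36 on HFD (adjusted p = 0.115), with no call on either diet. When replicate 3 was left out at 22 °C or at 4 °C on HFD, Mb was called higher on HFD, with 1.57 and 1.56, and batch 1 alone gave 1.57 with the same call. For each count of Acta1 there were 0.0754 to 0.178 counts of Mb in 9 libraries, and 1.25, 1.43 and 0.291 in the 3 HFD libraries at 4 °C. The difference of the cold effect between diets was 1.23 ± 0.50 for Mb (adjusted p = 0.526).

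The cold effect was next compared between the diets. None of the 42 members passed the test of the difference (adjusted p under 0.05; 0.0119% of all genes did), although 18 had an unadjusted p under 0.05, and the lowest adjusted p was 0.365, for Myot, at -0.77 ± 0.20. For 38 members the fitted effect was more negative on HFD. The median difference was -0.63 over the members and -0.03 over all genes. The share of all genes was not counted for the 18 or the 38. Because the members vary together, neither count is a number of separate observations, and neither replaces the test that no member passed. DESeq2 with the block called 0 members and 0.836% of all genes. Without a filter on counts, edgeR called 16 members, 13 with a negative and 3 with a positive difference, and 1.43% of all genes.

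For HFD itself no member passed the test. At 22 °C, 0 of 42 were called (2.09% of all genes), with a median log2 fold change of 0.01, and 1 had an unadjusted p under 0.05 (Myh8, -2.71 ± 0.95, adjusted p = 0.164). At 4 °C, 0 were called (4.75% of all genes), with a median of -0.82, and 0 had an unadjusted p under 0.05. DESeq2 called 0 at either temperature, with no adjusted p for 17 members. The libraries of the diets did not overlap for 1 member at 22 °C, Myh3 (25.9% of all genes), and for 0 at 4 °C (25.2%). These contrasts use group means, since replicate numbers were not taken to join libraries of different diets, and they carry the full spread in muscle transcripts. With only the libraries of batch 1 the median was -2.24 at 22 °C and -3.08 at 4 °C, again with 0 calls. The direction of these medians turned with single libraries: at 22 °C the median was 1.38 without NCD replicate 2 and -1.88 without HFD replicate 3, and at 4 °C it was 0.81 without NCD replicate 2 and -2.64 without HFD replicate 3.

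Fibre type was read from 8 pairs of fast and slow genes, as the log2 ratio of CPM per kilobase. Fast isoforms predominated in 7 of the 8 pairs in every library. In the 6 libraries with the highest muscle sum, the fast heavy chains (Myh1, Myh2 and Myh4 together) exceeded Myh7 by 3.49 in HFD 22 °C replicate 3, 3.47 in NCD 22 °C replicate 2, 2.71 in NCD 4 °C replicate 2, 3.07 in HFD 4 °C replicate 3, 7.11 in NCD 22 °C replicate 3 and 3.88 in NCD 22 °C replicate 1. The ratio in NCD 22 °C replicate 3 stood above the other 5. There, the fast chains made up 99.3% of fast plus slow heavy chain transcripts, against 86.8% in NCD 4 °C replicate 2.

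The same library was the highest of the 6 for all 8 pairs. Its log2 ratio was 6.54 for Mylpf over Myl2, 5.83 for Myl1 over Myl3, 5.48 for Tnnt3 over Tnnt1, 6.47 for Tnni2 over Tnni1 and 5.95 for Tnnc2 over Tnnc1. The other 5 libraries of the 6 lay between 1.30 and 2.68 for Mylpf over Myl2 and between 2.83 and 3.92 for Tnni2 over Tnni1. Calsequestrin varied less, with Casq1 over Casq2 between 3.05 and 4.38. Only myosin-binding protein C had the slow-type gene ahead in most libraries: Mybpc2 over Mybpc1 lay between -0.96 and 0.54 in the 6 libraries and between -0.998 and 0.54 in all 12. Whether Mybpc1 marks slow fibres in these libraries was not tested. Its r with the sum of the other members was 0.987, against 0.914 for Myh7.

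**Figure D4:**
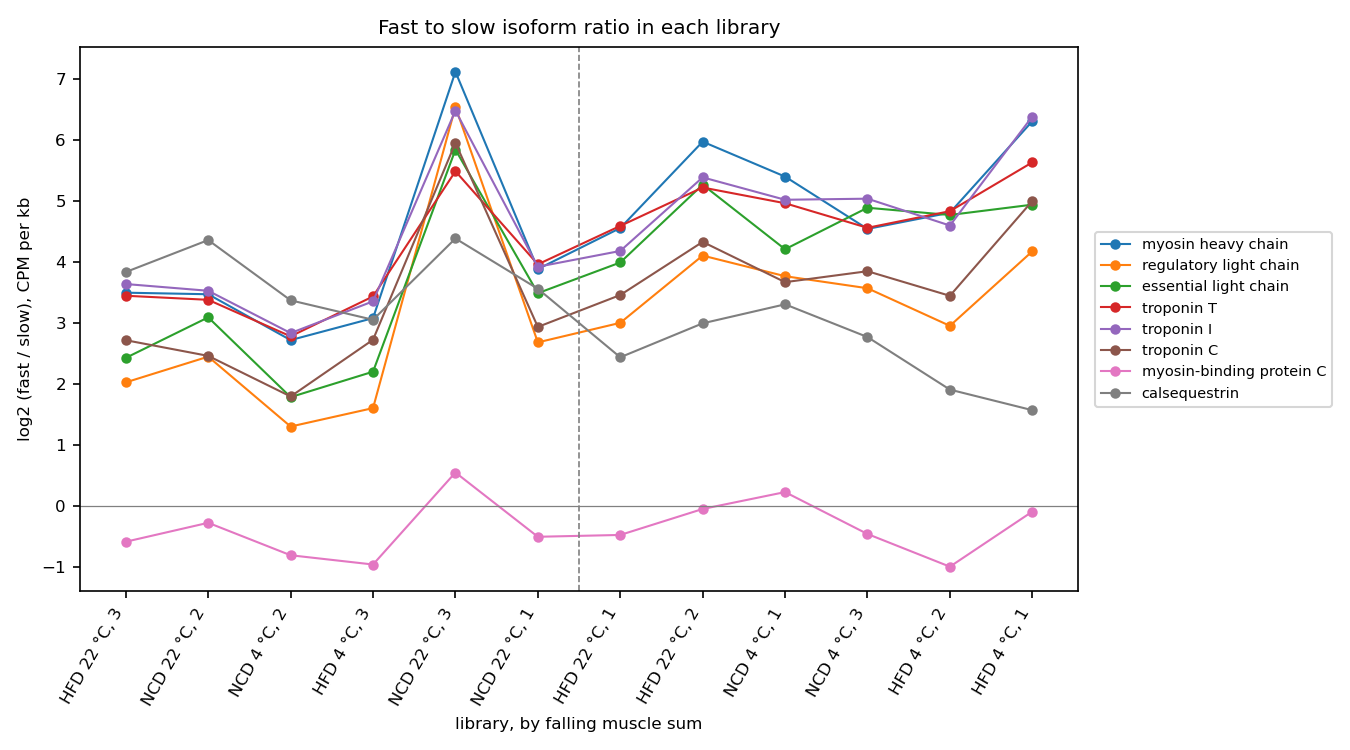
Log2 ratio of fast to slow isoform (CPM per kilobase) for 8 protein pairs in the 12 libraries, ordered from the highest to the lowest muscle sum, with a dashed line after the 6 highest. NCD 22 °C replicate 3 is the peak among the 6, and the myosin-binding protein C pair runs near 0.

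Over all 12 libraries the median ratio of the 8 pairs was lowest in NCD 4 °C replicate 2 (2.25) and highest in NCD 22 °C replicate 3 (5.89). The 4 libraries with the most muscle transcripts had medians of 2.25 to 3.23 and the other 8 had medians of 3.52 to 5.89. This cut at 4 libraries was not planned, and the muscle sum holds the same fast and slow genes. Slow genes also had few counts in the lowest library, HFD 4 °C replicate 1, with 13 for Tnnc1 and 16 for Tnni1. A link between muscle content and fibre type was therefore not tested. Within same-numbered pairs the ratio at 4 °C minus that at 22 °C differed in direction by replicate number. Apart from calsequestrin, it was above 0 in replicate 1 and below 0 in replicates 2 and 3 on both diets. The exception was Tnnc2 over Tnnc1 in HFD replicate 3, at 0.0077. For the heavy chains it was 1.51, -0.75 and -2.58 in NCD replicates 1, 2 and 3, and 1.75, -1.16 and -0.42 in HFD replicates 1, 2 and 3. Calsequestrin was the pair with a lower ratio at 4 °C in 6 of 6, from -1.61 to -0.26. Among all heavy chains per kilobase, Myh4 made up 49.8% to 76.9%, Myh1 10.2% to 37.7%, Myh2 7.29% to 13.9% and Myh7 0.712% to 13.2%, with the split of the 3 fast chains uncertain as given above.

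Other genes of skeletal muscle were read from the same libraries and fits, so they are no independent check. Of 49 such genes, 22 were called lower at 4 °C on NCD and 35 on HFD, and 0 higher, with medians of -0.86 and -1.26. Of all genes, 4.38% were called lower on NCD and 6.75% on HFD. Without the block, 0 of the 49 were called on either diet (6.27% and 9.58% of all genes), and 2 and 3 had an unadjusted p under 0.05. Atp2a1, the calcium pump of fast fibres, was at 368, 2299 and 436 CPM on NCD at 22 °C, 253, 1323 and 157 on NCD at 4 °C, 351, 354 and 2891 on HFD at 22 °C and 100.2, 126 and 661 on HFD at 4 °C. Its log2 fold change was -0.94 ± 0.19 on NCD (adjusted p = 0.019) and -1.81 ± 0.19 on HFD (adjusted p = 0.00119). Ryr1, the calcium release channel, was at 93.1, 591 and 133 CPM on NCD at 22 °C, 64.8, 437 and 52.1 on NCD at 4 °C, 91.2, 77.1 and 924 on HFD at 22 °C and 24.1, 28.002 and 265 on HFD at 4 °C, with -0.77 ± 0.18 on NCD (adjusted p = 0.0309) and -1.73 ± 0.19 on HFD (adjusted p = 0.00122). The 3 with the lowest p on NCD were Tmod4, which caps thin filaments, Prkag3, a regulatory subunit of AMP-activated kinase, and Myoz1 of the Z-disc, at -1.23, -2.38 and -1.09. On HFD they were Tmod4, the muscle ribosomal protein Rpl3l and the actin-binding Xirp2, at -1.99, -1.95 and -1.76.

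The summed level of these 49 genes was then added to the fit, as a rough measure of muscle content that uses none of the members. It varied 13.9-fold over the libraries, against 45.7-fold for the sum of the 38 members. In HFD 4 °C replicate 1, where it was lowest, Fhl1 alone made up 204 of its 682 CPM. In HFD 22 °C replicate 3 Fhl1 made up 587 of 9467 CPM. How fully this sum follows muscle content was not tested, least of all in the libraries with little muscle. With the block, 1 member was still called on NCD (Casq1, -1.41 ± 0.24, adjusted p = 0.0491) and 0 on HFD. This sum fell with cold in the same pairs, and 0.932% and 0.00597% of all genes were called in that fit. With the sum but no block (an alternative chosen after seeing the data), 7 members were lower on NCD (Myh3, Myh8, Myl1, Mylpf, Tpm1, Casq1 and Pvalb) and 5 on HFD (Myl1, Mylpf, Ttn, Casq1 and Pvalb), where 7.15% and 10.2% of all genes were called. In the same fit Mb was higher on HFD, by 2.11 ± 0.32 (adjusted p = 0.00216). With the sum as a covariate, Mb was also higher on HFD than on NCD at 4 °C, by 1.95 ± 0.30 (adjusted p = 0.00445).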

How the data were processed

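Total RNA of iBAT was sequenced from 12 libraries. The table deposited by the authors holds salmon's estimated counts for each gene (reads trimmed with cutadapt; GENCODE plus RNAcentral transcripts, GRCm38). Values are whole, not normalized and not pooled over replicates. Every column matched 1 sample label. Because total RNA was sequenced, nascent and non-coding transcripts share the depth.

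The 42 genes and the gene lists were chosen with earlier results of these data known. All 42 genes were to be accounted for. Values in every library were given for the fast and slow pairs, Acta1, Ckm, Myh3, Myh8 and each gene called in any test, and of the other muscle genes for Atp2a1 and Ryr1, with up to 3 of lowest p named in each cold contrast.

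Counts were filtered (edgeR 4.0.16 filterByExpr, minimum count 10), scaled with TMM and tested over 16737 genes with edgeR's quasi-likelihood test in R 4.3.3, with Benjamini-Hochberg adjustment over all of them. Cold was fitted within each diet, blocking on replicate number (4 residual degrees of freedom), HFD with the 4 group means (8). A call needed an adjusted p under 0.05 and, except for the difference between diets, an absolute log2 fold change over 0.5. Same-numbered libraries deviated together from their group means (r = 0.219 to 0.456 on NCD and 0.155 to 0.386 on HFD, and 0.198 to 0.402 and 0.114 to 0.322 without the muscle genes), while other numbers gave at most 0.134, and 0.109 without the muscle genes. On HFD, replicate 1 at 22 °C had r = 0.155 with replicate 1 at 4 °C and 0.134 with replicate 2. Without the muscle genes these were 0.114 and 0.109, so replicates 1 and 2 on HFD were barely told apart. Deviations cancel out within a group, so a higher r for the same number goes with a lower r for other numbers. Neither the labels nor the methods say what a number joins, so the pairing rests on these correlations, and replicate 3 also shares a batch. Errors of log2 fold changes are standard errors. Correlations used log2(CPM + 1).

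Levels between genes were compared per kilobase of the union of exons in GENCODE M21, an annotation release other than the authors'. Alternatives were DESeq2 1.42.0, its size factors, other filters, batch 1 alone, batch as a term, fewer libraries, and muscle content as a covariate. The blocked test was first tested on simulated data. Counting error alone sets the floor of 3 counts.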

Additional observations from a re-analysis of the deposited data

How the results depend on the processing

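The cold calls depended on the replicate block. Without it, 1 member was called on NCD in place of 28 and 0 on HFD in place of 34, and of the other skeletal muscle genes 0 on NCD in place of 22 and 0 on HFD in place of 35. Of all genes, 6.27% on NCD and 9.58% on HFD were called without the block, in place of 8.86% and 12.9%. The cause was not tested beyond the spread in muscle transcripts given above. With the sum of the other muscle genes as a covariate, a sum that itself moves with the members, 1 member was called on NCD, 0 on HFD, and 1 between diets at 4 °C (Mb). Of all genes, 0.932%, 0.00597% and 6.64% were called. With that sum and no block, 7 members were called on NCD and 6 on HFD (7.15% and 10.2% of all genes). Leaving out 1 library at a time gave 11 to 31 calls on NCD, with 1.40% to 10.3% of all genes called, and 0 to 1 in the fit of group means, with 2.83% to 6.51% of all genes. Without a filter on counts, 36 members were called on NCD, 40 on HFD and 16 for the difference between diets, with 6.20%, 8.20% and 1.43% of all genes. DESeq2 with the block called 31 and 35 members on NCD and HFD (9.61% and 13.1% of all genes). DESeq2 size factors gave 29 and 34 (8.70% and 12.8%), and a mean of at least 10 counts 28 and 34 (8.95% and 13.1%). The 6 libraries of a diet alone gave 33 and 33 (12.2% and 7.72%).

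Some log2 fold changes turned from lower to higher, the cause of which was not tested. With the covariate and the block they were Mb 0.78, Myom1 0.20, Tpm3 0.51, Ttn 0.23 on NCD and Des 0.19, Myom1 0.60, Tpm3 0.86 on HFD. With the covariate and no block they were Actn2 0.19, Mb 0.33, Myh7 0.20, Myl2 0.069, Myl3 0.0099, Myom1 0.07996, Myot 0.14, Tcap 0.14, Tnnc1 0.35, Tnni1 0.11, Tnnt1 0.10, Tpm3 0.28 on NCD and Actn2 0.48, Des 0.39, Myh7 0.44, Myl2 0.0795, Myl3 0.27, Myom1 0.38, Myom2 0.066, Myot 0.056, Tcap 0.14, Tnnc1 0.37, Tnni1 0.28, Tnnt1 0.31, Tpm3 0.48 on HFD. Tpm3 on HFD was 0.17 in batch 1 alone. Over single libraries left out, the values ran for Myh7 on NCD from -1.21 to 0.44, for Myl2 on NCD from -1.11 to 0.068, for Tnnc1 on NCD from -0.87 to 0.14, for Tpm3 on HFD from -0.45 to 0.17, for Tpm3 on NCD from -0.13 to 0.0305. Of the values of single genes over all alternatives, 43 reversed, 301 lost the call, 50 gained it and 1369 kept direction and call. Depth limits Myh3 and Myh8 in the libraries where they had 0 to 6 counts.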

Other observations

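Markers of developing, cardiac and smooth muscle gave values that belong in no comparison above. Of 12 satellite cell and myogenic factors, 6 passed the filter on counts, and 2 of these were lower at 4 °C on both diets: Myf6, with -1.55 ± 0.31 on NCD (adjusted p = 0.0173) and -1.28 ± 0.32 on HFD (adjusted p = 0.0302), and Mef2c, with -0.74 ± 0.18 (adjusted p = 0.0317) and -0.96 ± 0.18 (adjusted p = 0.0091), by edgeR with the block. Of all genes, 4.38% were called lower on NCD and 6.75% on HFD in that fit. Without the block neither Myf6 nor Mef2c was called. Pax7, the marker of satellite cells, had at most 0.93 CPM and was at 0 in 4 libraries.

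Of 10 heart muscle genes, Nppa, Nppb and Myl7 were at 0 in all 12 libraries. Ryr2, the cardiac calcium release channel, was at 4.94 to 14.8 CPM in the 6 NCD libraries and at 59.6 to 127 CPM in the 6 HFD libraries, a log2 fold change with HFD of 3.70 ± 0.35 at 22 °C (adjusted p = 0.000803) and 2.998 ± 0.34 at 4 °C (adjusted p = 0.00133) by edgeR. At 22 °C the other 4 heart genes tested were lower on HFD and not called. Their values were -3.67 for Myh6, -3.30 for Actc1, -1.24 for Tnnt2 and -0.13 for Myl4. At 4 °C Myl4 was called higher on HFD too, with 1.61 ± 0.28 (adjusted p = 0.00942), and the other 3 were not called. Of all genes, 2.09% were called with HFD at 22 °C and 4.75% at 4 °C. Of the 5 heart genes that passed the filter, 1 was called lower at 4 °C on NCD (Actc1) and 1 higher on HFD (Myl4). Of 10 smooth muscle genes, 3 were called higher and 1 lower at 4 °C on NCD, and 1 higher and 1 lower on HFD. Of all genes, 4.48% were called higher and 4.38% lower at 4 °C on NCD, and 6.11% higher and 6.75% lower on HFD. Cnn1 was higher at 4 °C on both diets, with 1.011 ± 0.22 on NCD (adjusted p = 0.0245) and 1.13 ± 0.22 on HFD (adjusted p = 0.0119), while Synpo2 was lower, with -0.61 ± 0.16 (adjusted p = 0.0421) and -1.04 ± 0.16 (adjusted p = 0.00472). Without the block, of these calls that of Cnn1 on HFD was made and the other 3 were not. Synpo2 was at 103 and 62.3 CPM in NCD replicate 2 at 22 °C and 4 °C. It was at 131 and 47.7 CPM in HFD replicate 3 at 22 °C and 4 °C, and at 20.2 to 41.4 CPM in the other libraries. Its levels thus followed the skeletal muscle sum, and whether its fall concerns smooth muscle was not tested.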
